A study of Mus musculus with 37 samples.

Results

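The 6 GATA transcription factor genes of the mouse, Gata1 to Gata6, were followed from the fully grown oocyte to the embryonic day 6.5 embryo in 37 RNA-seq libraries, with and without the maternal deubiquitinase Bap1. They were chosen by gene symbol, and all 6 were found among the 55401 genes of each of 2 expression tables. The total RNA table held 26 libraries of fully grown oocytes (FGO), metaphase II eggs (MII), late 1-cell embryos (L1C), early 2-cell embryos (E2C) and late 2-cell embryos (L2C). Each of these stages had 3 knockout libraries, and 2 control libraries except at E2C, which had 3. The poly(A) table held 11 libraries of epiblast (EPI), visceral endoderm (VE) and extraembryonic ectoderm (EXE) dissected at embryonic day 6.5, with 2 libraries per lineage and genotype except for a single EXE control. All mothers were homozygous for a floxed Bap1 allele. Knockout mothers also carried Gdf9-iCre, a recombinase driven by an oocyte promoter, which control mothers lacked. Embryos of L1C, E2C and L2C were sired by B6 males and those of embryonic day 6.5 by PWK males. The embryonic groups are thus models of maternal loss, since a B6 or PWK copy of Bap1 came from the father. The labels do not say whether replicates came from separate animals or pools, and the p-values below therefore measure the spread between these libraries, which may be technical.

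GATA factors carry zinc fingers that bind GATA motifs in DNA. GATA1, GATA2 and GATA3 are best known in blood, and GATA2 and GATA3 also in trophoblast, the lineage that forms the placenta. GATA4, GATA5 and GATA6 act in endoderm, heart and gonads, and GATA4 and GATA6 are needed for primitive and visceral endoderm. BAP1 removes monoubiquitin from histone H2A, a mark placed by Polycomb repressive complex 1, and Polycomb marks lie preferentially at CpG-rich promoters of developmental regulators, a class to which most GATA genes belong.

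In the GRCm38 assembly the genes lie apart from each other. Gata1 (ENSMUSG00000031162.14) spans chrX:7959260-7978071 on the minus strand, Gata2 (ENSMUSG00000015053.14) chr6:88193891-88207032 on the plus strand and Gata3 (ENSMUSG00000015619.10) chr2:9857078-9890034 on the minus strand. Gata4 (ENSMUSG00000021944.15) spans chr14:63198922-63271692 on the minus strand and Gata5 (ENSMUSG00000015627.5) chr2:180325133-180334699 on the minus strand. The RefSeq promoter table used here matched 4 of the 6 genes with 5 start sites. The 250 bases upstream of the RefSeq start are shown for Gata1 and Gata3, the genes with the largest knockout differences below. They are written 5′ to 3′ on the gene's strand, with CpG dinucleotides in capitals. The Gata1 window is chrX:7967911-7968160 and the Gata3 window chr2:9878601-9878850 (GRCm38.p6, both on the minus strand). Both windows lie inside the gene spans given above, downstream of the 5′ ends of those spans. The use of these starts in the samples was not tested.
Gata1: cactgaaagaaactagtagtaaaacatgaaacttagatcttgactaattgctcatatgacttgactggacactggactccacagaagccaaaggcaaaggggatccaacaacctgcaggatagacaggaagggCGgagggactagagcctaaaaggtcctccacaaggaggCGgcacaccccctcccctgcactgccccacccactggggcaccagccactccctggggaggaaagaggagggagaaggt
Gata3: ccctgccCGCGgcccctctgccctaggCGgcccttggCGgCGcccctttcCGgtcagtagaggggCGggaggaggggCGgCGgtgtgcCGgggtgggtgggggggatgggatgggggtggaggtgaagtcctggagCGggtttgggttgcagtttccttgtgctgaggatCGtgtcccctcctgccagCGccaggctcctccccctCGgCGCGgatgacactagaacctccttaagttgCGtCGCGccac
The Gata1 window held 2 CpG dinucleotides at 54% G and C, and the Gata3 window 19 at 70%. Over 32851 RefSeq promoter windows of the same length the median was 6 CpG, the quartiles were 2 and 16, and 80.3% of windows held fewer CpG than Gata3 against 18.8% for Gata1. The start sites of Gata2, which had no called knockout difference, held 22 and 24 CpG, and that of Gata5 held 22. Polycomb marks were not measured in these RNA libraries, and a link of CpG number to the knockout differences was not tested. The words AGATAA and TGATAA, searched on both strands, were in none of the 5 windows and in 16.6% of all windows.

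Values are in FPKM as deposited, a fragment number scaled to the gene's length and the library's size. The FPKM of a total RNA library summed to between 300667 and 430783 and that of a poly(A) library to between 593705 and 704521, and sequencing depth cannot be read from them. Differences are knockout minus control, or later minus earlier, in log2(FPKM + 1) with the standard error (SE), which understates changes of genes near or below 1 FPKM. A gene was called when its limma p, adjusted over all tested genes, was under 0.05, and genes reaching 1 FPKM in at least 2 libraries of a table were tested. Gata1, Gata2, Gata3 and Gata4 passed this filter in total RNA, and these and Gata6 in poly(A). Gata5 passed in neither. Bap1 itself ranged from 16.3 to 29.9 FPKM in control libraries of the first 5 stages and from 3.76 to 11.7 FPKM in knockout libraries, without overlap at any stage. The lineages of embryonic day 6.5 carried their own markers: the VE marker list summed to 3418 to 5389 FPKM in VE and at most 14.1 FPKM elsewhere, and the EXE list to 425 to 533 FPKM in EXE and at most 28.6 FPKM elsewhere. The epiblast list summed to 965 to 1452 FPKM in EPI, 49.1 to 166 FPKM in VE and 408 to 506 FPKM in EXE. In EXE all 6 of its genes reached 1 FPKM, but most of the sum was Utf1, at up to 482.5 FPKM. The highest gene of the list in EPI was Pou5f1, at up to 693.8 FPKM. The part of epiblast RNA in the EXE values was not tested. In bulk samples fewer cells of a type and less RNA per cell cannot be told apart.

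Before genome activation, control oocytes, eggs and 1-cell embryos held mRNA of Gata4 and Gata3 and little of the others. Gata4 was the most abundant member per length at every early stage. At L2C, after the major wave of zygotic transcription, Gata1 and Gata4 were far higher than at E2C in controls, and both reached a lower level in knockout embryos. Gata3 was low in knockout libraries of every early stage.

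**Figure D1:**
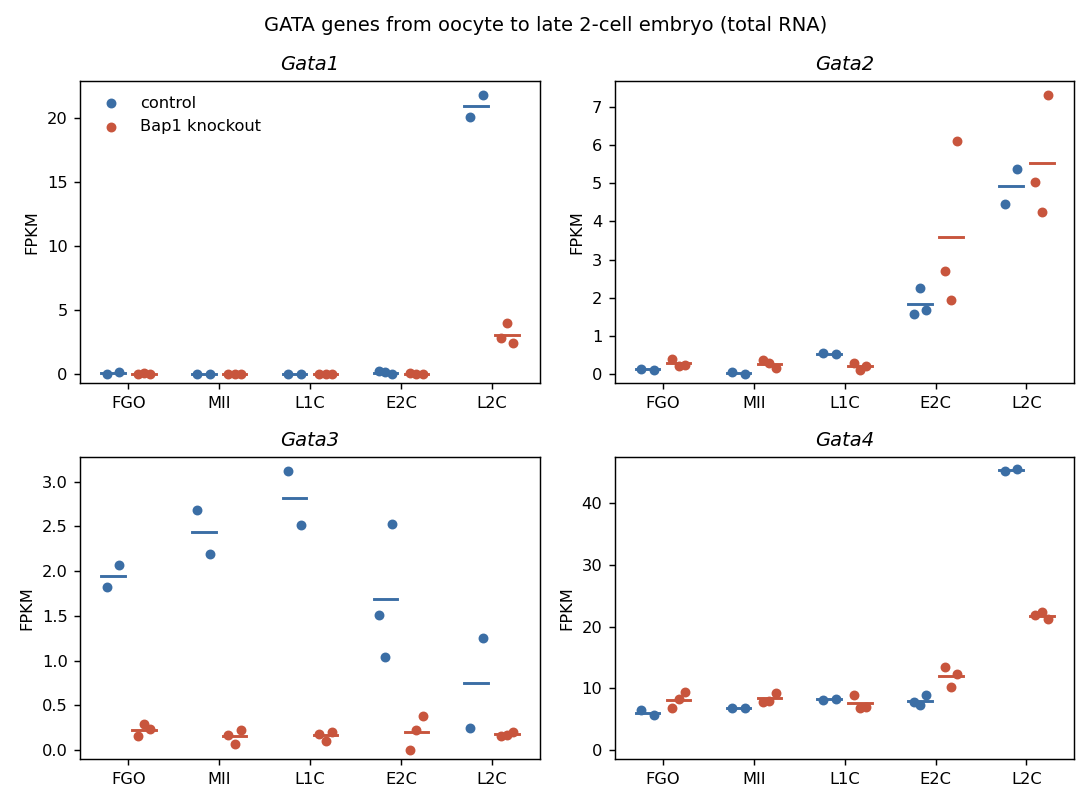
Levels of Gata1 to Gata4 in FPKM (y axis, linear and different for each gene) in each total RNA library at 5 stages (x axis), controls in blue and Bap1 knockouts in red, with horizontal bars at group means. Control L2C libraries stand at 20.1 and 21.8 FPKM for Gata1 and at 45.3 and 45.6 FPKM for Gata4, above all knockout libraries, and Gata3 in knockouts stays at or below 0.382 FPKM.

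Gata3, a regulator of trophoblast and T cells, was present in control FGO at 1.82 and 2.07 FPKM and in knockout FGO at 0.155, 0.297 and 0.232 FPKM. In MII eggs it stood at 2.68 and 2.19 FPKM in controls and at 0.168, 0.0737 and 0.228 FPKM in knockouts. The groups did not overlap at either stage, as 24.1% of tested genes did not in this direction in FGO and 21.9% in MII, and the control mean was 8.53 times the knockout mean in FGO and 15.6 times in MII. Lower Gata3 in knockout oocytes was already known when the family was selected, so these values are descriptive and carry no test. Their log2 differences were -1.26 ± 0.14 (SE) in FGO and -1.57 ± 0.12 in MII.

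The same low level was found after fertilization. Gata3 measured 3.12 and 2.52 FPKM in control L1C embryos against 0.184, 0.104 and 0.205 FPKM in knockouts, 2.82 ± 0.429 (SD, n = 2) against 0.164 ± 0.0530 (n = 3). The control mean was 17.1 times the knockout mean, and the log2 difference was -1.71 ± 0.14 (SE, limma adjusted p = 2.03e-08). Gata3 was the only 1 of 4 tested members called at L1C, where 17.6% of all tested genes were called. In E2C embryos it measured 1.505, 1.04 and 2.53 FPKM in controls against 0, 0.221 and 0.382 FPKM in knockouts. All 3 control libraries lay above all 3 knockout libraries, a pattern that 15.1% of tested genes showed in this direction. The log2 difference was -1.14 ± 0.24 (SE, adjusted p = 0.00299), and the call was lost when E2C libraries were fitted alone (adjusted p = 0.0552). It was again the only member called of 4, where 13.5% of tested genes were. All total RNA libraries with Gata3 at 1 FPKM or more were controls, so it passed the filter only through the group where it was high. Mothers of L1C and E2C embryos had the same genotypes as those of the oocytes in which lower Gata3 was already known. The L1C and E2C calls are therefore not independent of the selection.

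At L2C the Gata3 mRNA of controls was itself low, at 0.250 and 1.25 FPKM, and the 3 knockout libraries lay at 0.161, 0.174 and 0.197 FPKM. Both controls lay above the knockouts, control replicate 1 only slightly. The log2 difference of -0.51 ± 0.23 did not pass (adjusted p = 0.0924). It passed without control replicate 1 (-0.93, adjusted p = 0.0106), and ranged from -0.93 to -0.09 when single libraries were left out. In controls Gata3 fell by 0.54 ± 0.20 on the log2 scale from L1C to E2C (adjusted p = 0.0334) and by 0.64 ± 0.25 from E2C to L2C (adjusted p = 0.0326). Libraries of neighbouring stages overlapped in both steps, and both calls were lost under several alternatives. Without L2C control replicate 1 the second step was -0.22 (adjusted p = 0.540). The change of the knockout difference between neighbouring stages was not called for Gata3 at any step, with adjusted p between 0.213 and 0.860.

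Of the genes listed as markers of somatic follicle cells, 1 moved with Gata3. Of a list of 10 granulosa and cumulus cell genes only Cyp19a1, the aromatase gene, reached 1 FPKM in FGO, MII, L1C or E2C. It ranged from 3.46 to 6.72 FPKM in controls and from 1.14 to 2.16 FPKM in knockouts of these stages. Control FGO libraries held 6.72 and 5.16 FPKM of Cyp19a1, and control E2C libraries, after fertilization, held 4.52, 3.55 and 3.46 FPKM. The summed list lay between 4.55 and 8.21 FPKM in control groups of these stages and between 1.59 and 3.13 FPKM in knockout groups. Without Cyp19a1 the sum was 1.83 FPKM at most. It was still lower in knockouts without overlap in MII (0.252 to 0.633 FPKM against 0.761 to 0.803 FPKM) and E2C (0.448 to 0.994 FPKM against 0.9996 to 1.58 FPKM), and overlapped in FGO and L1C. Ptx3 and Tnfaip6, genes of cumulus cells, were at 0 in every FGO library. The part of these cells in the Gata3 values was not tested.

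Gata1, the master regulator of red blood cell and platelet precursors, was nearly undetected before L2C. It was listed at 0 in 14 of 21 libraries from FGO to E2C, and its highest value there was 0.229 FPKM. Control L2C embryos then held 20.1 and 21.8 FPKM and knockout L2C embryos 2.84, 3.99 and 2.42 FPKM. The genotypes were separate at L2C, and every L2C library of either genotype lay above every earlier library. The means were 20.9 ± 1.20 (SD, n = 2) and 3.08 ± 0.812 FPKM (n = 3), a ratio of 6.79. The log2 difference was -2.44 ± 0.16 (SE, adjusted p = 1.23e-09), and it passed under every alternative, with leave-one-out values from -2.60 to -2.32.

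The rise of Gata1 in controls from E2C to L2C was 4.27 ± 0.17 on the log2 scale (adjusted p = 1.41e-13). All 5 total RNA libraries with Gata1 at 1 FPKM or more were of L2C. It thus passed the filter only through the stage where it was high, and the call of its rise is not independent of the filter. The knockout difference at L2C differed from that at E2C by -2.32 ± 0.23 in the interaction test (adjusted p = 1.13e-06), and 18.9% of all tested genes were called in that test against 2 of the 4 members. With a pseudocount of 0.1 FPKM this interaction lost its call (-2.10, adjusted p = 0.162). At L2C 34.2% of tested genes were called for the knockout and 27.7% were lower without overlap, so the 2 of 4 members called there stand among many changed genes.

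Gata4, which acts in endoderm, heart and the gonads, was found in every total RNA library. From FGO to L1C it ranged from 5.65 to 9.38 FPKM over both genotypes. FGO libraries held 6.47 and 5.65 FPKM in controls and 6.84, 8.23 and 9.38 FPKM in knockouts, which lay higher without overlap, as did 17.7% of tested genes. The log2 difference in FGO was 0.37 ± 0.11 (SE, adjusted p = 0.0284). This small call was lost under 8 of 12 alternatives, among them the fit to FGO libraries alone (adjusted p = 0.264), so it rests on the pooled spread. Of the 3 members that the selection had not used, Gata4 alone was called in FGO, beside 13.9% of all tested genes. In MII eggs Gata4 measured 6.88 and 6.90 FPKM in controls and 7.87, 8.03 and 9.29 FPKM in knockouts, and in L1C embryos 8.16 and 8.36 FPKM in controls and 8.87, 6.90 and 6.92 FPKM in knockouts. The MII groups were separate, with knockouts higher as for 19.8% of tested genes, and the L1C groups overlapped, and neither difference passed (0.25 ± 0.10, adjusted p = 0.0908, and -0.12 ± 0.11, adjusted p = 0.534).

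At E2C Gata4 measured 7.73, 7.33 and 8.97 FPKM in controls and 13.4, 10.2 and 12.4 FPKM in knockouts. Knockout libraries lay above all controls, as did 14.6% of tested genes, but the difference of 0.53 ± 0.19 had an adjusted p of 0.0727. It passed under TPM scaling (adjusted p = 0.0411), median centring (0.0470) and a fit without stage weights (0.00211). On simulated data the fit without stage weights made 392 false calls of 589 at E2C, so its pass carries little weight. At L2C the order was turned round: controls held 45.3 and 45.6 FPKM and knockouts 21.9, 22.3 and 21.2 FPKM, 45.4 ± 0.186 (SD, n = 2) against 21.8 ± 0.550 (n = 3), with a ratio of 2.08. This difference of -1.03 ± 0.18 (SE, adjusted p = 0.00016) passed under every alternative, with leave-one-out values from -1.04 to -1.01. Gata4 rose from E2C to L2C in controls by 2.37 ± 0.19 (adjusted p = 2.23e-09), and the knockout difference changed between these stages by -1.55 ± 0.26 (adjusted p = 0.000264). The interaction was called under every alternative run.

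Maternal mRNA moved with both results at L2C. The 6 oocyte markers, Zp3, Gdf9, Bmp15, Nlrp5, Ooep and Padi6, summed to 267 and 274 FPKM in control L2C libraries and to 455 to 528 FPKM in the knockouts, against 592 to 836 FPKM at E2C in either genotype. The part of residual maternal RNA in the Gata1 and Gata4 values was not tested.

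Gata2, a factor of blood stem cells and trophoblast, climbed through the early stages. In controls it was 0.154 and 0.119 FPKM in FGO, 0.0601 and 0.0218 FPKM in MII and 0.549 and 0.543 FPKM in L1C. It was then 1.57, 2.27 and 1.68 FPKM in E2C and 4.45 and 5.38 FPKM in L2C. No libraries of L1C, E2C and L2C overlapped with the stage before. The steps were 0.57 ± 0.16 from MII to L1C (adjusted p = 0.0115), 0.87 ± 0.22 from L1C to E2C (adjusted p = 0.00286) and 1.06 ± 0.27 from E2C to L2C (adjusted p = 0.00230). The step from MII to L1C stayed below 1 FPKM, and its call was lost without stage weights (adjusted p = 0.217) and without MII replicate 2 or either L1C library. All total RNA libraries with Gata2 at 1 FPKM or more were of E2C or L2C, so it passed the filter only through these stages.

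In knockouts Gata2 was above 1 FPKM from E2C on, and steps between knockout stages were not tested. It was 0.410, 0.208 and 0.259 FPKM in FGO, 0.389, 0.289 and 0.163 FPKM in MII and 0.291, 0.122 and 0.227 FPKM in L1C. It reached 2.71, 1.93 and 6.11 FPKM in E2C and 5.04, 4.25 and 7.30 FPKM in L2C. Knockout libraries lay above controls without overlap in FGO and MII and below them in L1C, all under 1 FPKM. Of all tested genes 17.7%, 19.8% and 20.9% were separate in these directions at these stages. In E2C and L2C the groups overlapped. No knockout difference of Gata2 passed at any early stage, with values of 0.18 ± 0.15, 0.30 ± 0.14, -0.35 ± 0.15, 0.59 ± 0.26 and 0.12 ± 0.25 in stage order and adjusted p from 0.131 to 0.766. The MII and L1C differences passed with a pseudocount of 0.1 FPKM (1.40 and -1.08) and under TPM scaling (0.74 and -0.69). The E2C difference passed only without knockout replicate 2 (0.86, adjusted p = 0.0479) among single libraries left out, and was 0.22 without knockout replicate 3, the library at 6.11 FPKM.

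Gata5 and Gata6 were at or close to 0 in the early stages. Gata5 was listed at 0 in 25 of 26 total RNA libraries, and its highest value was 0.0225 FPKM. Gata6 reached 0.553 FPKM at most and was listed at 0 in 6 of the 26 libraries. Neither was tested, and a change of either was not detectable at these levels.

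**Figure D2:**
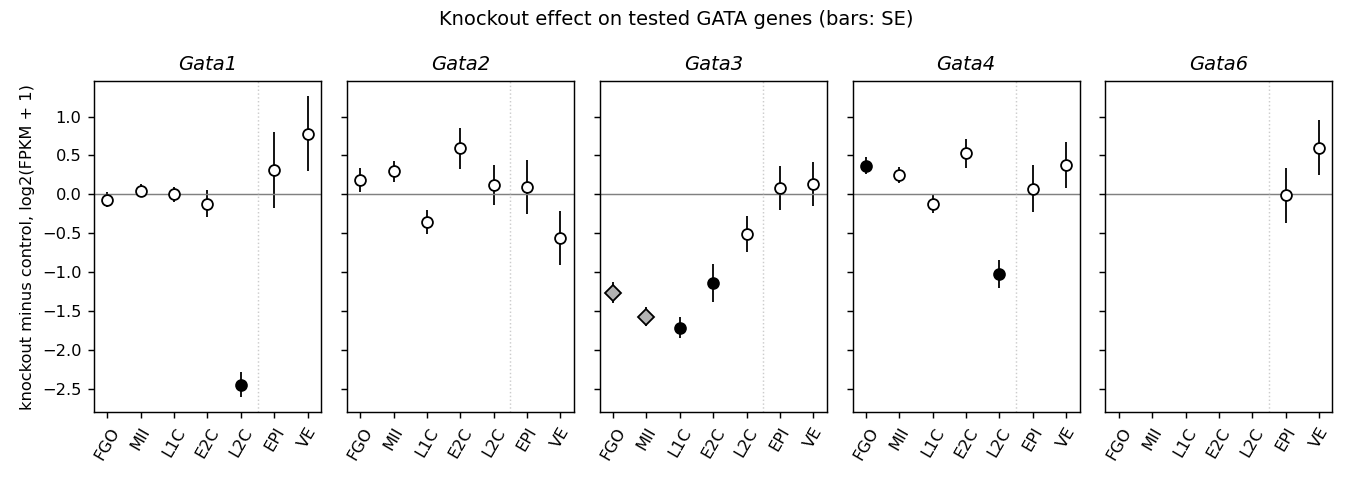
Knockout minus control difference in log2(FPKM + 1) (y axis) for each tested GATA gene at each stage and lineage (x axis), with bars of 1 SE; filled circles are called, open circles are not, and grey diamonds mark Gata3 in FGO and MII, shown without a test. The lowest points are Gata1 at L2C (-2.44), Gata3 from FGO to E2C (-1.71 to -1.14) and Gata4 at L2C (-1.03), while no point of EPI or VE is filled.

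Over the family, the step from FGO to MII gave no call among the 4 tested members in controls (limma, unadjusted p 0.141 or more for each), where 5.39% of tested genes were called. From MII to L1C 1 of 4 was called against 25.4% of genes, from L1C to E2C 2 of 4 against 47.2%, and from E2C to L2C all 4 against 51.7%. In the last step Gata1, Gata2 and Gata4 were higher and Gata3 lower. Gata1 had passed the filter only through L2C libraries, and Gata2 only through those of E2C and L2C. For the knockout in MII 16.8% of tested genes were called. The selection had used the Gata3 difference there, and none of the other 3 members was called. The test of a changed knockout difference called none of the 4 members from FGO to MII, MII to L1C or L1C to E2C, against 0%, 0.198% and 3.35% of tested genes. At an unadjusted limma p under 0.05 it held none, 2 and 2 of them in these steps, Gata2 and Gata4 in both cases, beside 11.1%, 12.5% and 16.3% of all tested genes.

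Each lineage of the embryonic day 6.5 embryo had its own set of GATA mRNAs. EXE, the trophoblast-derived layer, held Gata1, Gata2 and Gata3, VE held Gata4 and Gata6, and EPI held none above 1.07 FPKM. None of the 5 tested members was called for the maternal genotype in EPI or VE.

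**Figure D3:**
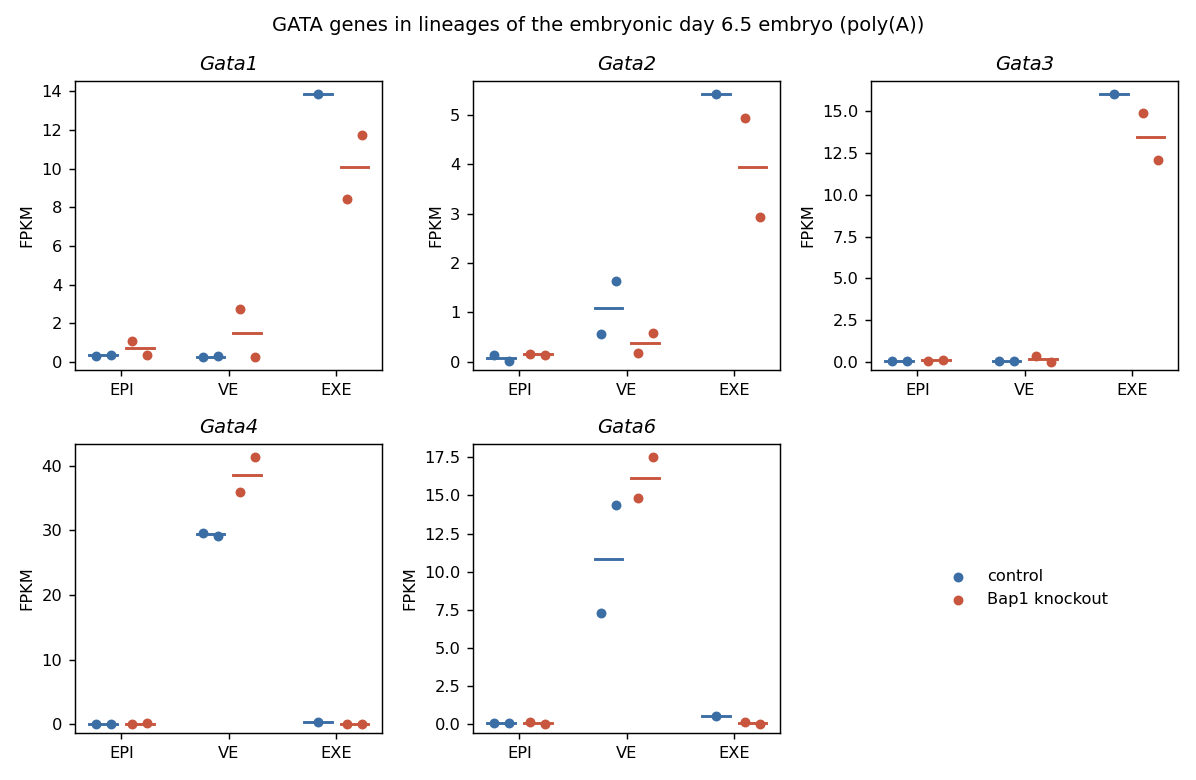
Levels of 5 GATA genes in FPKM (y axis, linear and different for each gene) in each poly(A) library of EPI, VE and EXE (x axis), controls in blue and maternal knockouts in red, with bars at group means. Gata1, Gata2 and Gata3 are high in the 3 EXE libraries, Gata4 and Gata6 in the 4 VE libraries, and VE knockout replicate 1 stands out for Gata1 at 2.72 FPKM.

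Gata3 had the sharpest EXE pattern. It measured 16.0 FPKM in the EXE control and 14.9 and 12.1 FPKM in the EXE knockouts, and at most 0.324 FPKM in the 8 libraries of EPI and VE. EXE exceeded EPI by 3.89 ± 0.22 on the log2 scale (adjusted p = 7.40e-06) and VE by 3.83 ± 0.22 (adjusted p = 2.75e-06). Gata1 measured 13.8 FPKM in the EXE control and 8.45 and 11.8 FPKM in the knockouts. Outside EXE it lay between 0.227 and 0.372 FPKM in 6 of 8 libraries and reached 1.07 FPKM in EPI knockout replicate 1 and 2.72 FPKM in VE knockout replicate 1. The EXE excess of Gata1 was 3.10 ± 0.38 over EPI (adjusted p = 0.000424) and 2.95 ± 0.38 over VE (adjusted p = 0.000417).

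Gata2 followed the same order at a lower level, with 5.41 FPKM in the EXE control and 4.93 and 2.94 FPKM in the knockouts. VE held 0.557 and 1.63 FPKM in controls and 0.185 and 0.592 FPKM in knockouts, and EPI at most 0.165 FPKM. The libraries of the lineages did not overlap. EXE exceeded EPI by 2.32 ± 0.27 (adjusted p = 0.000323) and VE by 1.74 ± 0.27 (adjusted p = 0.00138), while VE against EPI, at 0.58 ± 0.24, did not pass (adjusted p = 0.0890).

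Gata4 and Gata6 marked VE. Gata6 (ENSMUSG00000005836.10) spans chr18:11052064-11085635 on the plus strand of GRCm38. Gata4 measured 29.6 and 29.2 FPKM in VE controls and 35.9 and 41.3 FPKM in VE knockouts, and at most 0.413 FPKM in EPI and EXE. Gata6 measured 7.28 and 14.4 FPKM in VE controls and 14.8 and 17.5 FPKM in VE knockouts, and at most 0.580 FPKM elsewhere. VE exceeded EPI by 4.96 ± 0.21 for Gata4 (adjusted p = 4.40e-07) and 3.68 ± 0.25 for Gata6 (adjusted p = 5.03e-06). EXE was below VE by -4.84 ± 0.24 (adjusted p = 1.01e-06) and -3.42 ± 0.28 (adjusted p = 2.15e-05). EXE and EPI did not pass for either gene, both being under 1 FPKM there. Gata5 reached 0.106 FPKM at most and was listed at 0 in 6 of 11 libraries.

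Called members were 2 of 5 for VE against EPI, where 38.4% of tested genes were called, 3 of 5 for EXE against EPI (19.6%), and 5 of 5 for EXE against VE (22.6%). Gata3 reached 1 FPKM only in EXE libraries, Gata4 and Gata6 only in VE libraries, and Gata2 in EXE and 1 VE library. These members passed the filter only through the lineage where they were high. Their lineage calls and the counts are therefore not independent of the filter. The median difference of all tested genes was -0.20 for VE against EPI and 0.16 for EXE against VE, small beside the called members. Lineage differences are means over both genotypes, and the control side of EXE is 1 library.

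In VE, Gata4 and Gata6 were each higher in both knockout libraries than in both controls, as were 14.4% of tested genes. The mean ratios were 1.31 for Gata4 and 1.49 for Gata6, and the differences of 0.38 ± 0.30 and 0.60 ± 0.35 were not called (adjusted p = 1 for both). The Gata6 difference was 0.155 without VE control replicate 1 and 1.05 without VE control replicate 2, and that of Gata4 ranged from 0.28 to 0.48 with single libraries left out. Endoderm markers differed between the same libraries. The parietal endoderm list, with Srgn and Sparc as its highest genes, summed to 720 and 1033 FPKM in VE controls and 1088 and 1333 FPKM in VE knockouts, and the VE list to 4122 and 5389 FPKM against 3418 and 3476 FPKM. Their part in the Gata4 and Gata6 values was not tested. Gata2 in VE differed by -0.56 ± 0.35, from -0.94 without VE control replicate 1 to -0.18 without VE control replicate 2, and Gata3 by 0.13 ± 0.28. In EPI all 5 differences lay between -0.01 and 0.31. No member was called in either lineage, and the background was 0% of tested genes in EPI and 0.00719% in VE. At an unadjusted p under 0.05 there were 469 genes in EPI and 248 in VE, with no member among them. On simulated data the same test recovered 5 of 100 genes changed by 1 log2 unit in EPI and 3 of 100 in VE. Of those changed by 2 units it recovered 64 of 100 in EPI and 52 of 100 in VE. It made 36 false calls of 105 in EPI and 7 of 62 in VE. The changed genes had a mean log2(FPKM + 1) above 2 in the lineage, reached only by Gata4 and Gata6 in VE. For these 2 genes the differences seen were below 1 unit, a size that the test mostly missed. Recovery was not simulated for members at lower levels. EXE had 1 control and no test of the knockout was made. Knockout minus control was -0.44 for Gata1, -0.41 for Gata2, -0.24 for Gata3, -0.44 for Gata4 and -0.56 for Gata6 on the log2 scale. Gata4 and Gata6 lay at 0.413 and 0.580 FPKM in the EXE control and lower in the knockouts. The VE list summed to 14.1 FPKM in this control and to 5.63 and 6.76 FPKM in the knockouts. The part of VE RNA in these values was not tested.

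The VE difference of Gata1, 0.78 ± 0.48, rested on knockout replicate 1 and was 0.0006 without it. Blood markers were high in the same library: the blood list summed to 43.7 FPKM there and to 3.29 to 7.46 FPKM in the other 10 poly(A) libraries, with Hba-a1, an adult globin gene, at 16.6 FPKM. Hbb-bs and Hbb-bt, adult beta globin genes, were at 0 in all of the other 10. The decidua list summed to 4.42 FPKM in this library and to at most 0.781 FPKM in the others. The part of blood or maternal tissue in the Gata1 value was not tested.

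Genes that work with or downstream of GATA factors were read from 5 lists, chosen with earlier results of these data known. At L2C 9 of 29 tested list genes were called for the knockout, beside 34.2% of all tested genes. Of 6 tested trophoblast genes 1 was lower and 1 was higher in L2C knockouts (median -0.31, all genes 0.03). The lower gene was Tead4, which with Gata3 directs trophectoderm. It measured 6.25 and 7.65 FPKM in controls and 0.805, 0.428 and 1.36 FPKM in knockouts, with a difference of -2.12 ± 0.18 (adjusted p = 2.65e-08). Ascl2, an imprinted trophoblast gene, was the higher member (0.87 ± 0.17, adjusted p = 0.000497), at 1.75 FPKM or less in every total RNA library, and was not called with L2C libraries fitted alone. Only knockout L2C libraries reached 1 FPKM of Ascl2, so it passed the filter only through the group where it was high. Of the hematopoietic list both tested members moved: Nfe2, an erythroid and platelet factor, was lower (-1.27 ± 0.14, adjusted p = 5.85e-07) and Kit, a receptor of oocytes and blood stem cells, higher (0.54 ± 0.11, adjusted p = 0.000867).

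Other GATA-type zinc finger proteins gave 1 higher and 1 lower of 8 at L2C, where 34.2% of all tested genes were called. Mta2, a subunit of the NuRD corepressor complex, measured 110.6 and 92.9 FPKM in controls and 43.7, 33.5 and 44.2 FPKM in knockouts (-1.32 ± 0.27, adjusted p = 0.000801). Rere, another corepressor, was higher (0.50 ± 0.12, adjusted p = 0.00212). Like Gata1 and Gata4, the genes Tead4, Nfe2 and Mta2 rose from E2C to L2C in controls, by 2.75 ± 0.19, 2.06 ± 0.15 and 3.58 ± 0.29 (adjusted p at most 2.34e-09). In this step 51.7% of all tested genes were called. Tead4 and Nfe2 reached 1 FPKM only in L2C libraries, so they passed the filter only through that stage. Among partners 1 of 5 was higher, Cbfa2t3, a corepressor bound to GATA complexes, at 6.26, 8.23 and 6.32 FPKM in knockouts against 0.932 and 1.53 FPKM in controls (1.84 ± 0.33, adjusted p = 0.000195). Of 8 tested endoderm genes 2 were higher, with Lamb1, a laminin chain of basement membranes, at 0.84 ± 0.19 (adjusted p = 0.00164).

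Before the 2-cell stage 6 of 29 tested list genes were called for the knockout in FGO, 5 in MII and 6 in L1C, beside 13.9%, 16.8% and 17.6% of all tested genes. Trophoblast and hematopoietic genes gave no call in FGO, MII or L1C, with 6 and 2 tested, and none had an unadjusted limma p under 0.05. Lama1, a laminin chain, was lower in knockout FGO (-0.69 ± 0.09, adjusted p = 1.49e-05) and MII (-0.73 ± 0.08, adjusted p = 1.30e-06), within 3 and 2 lower calls of 8 endoderm genes and none higher. Of total RNA libraries only control FGO and MII reached 1 FPKM of Lama1, at up to 1.18 and 1.24 FPKM. It thus passed the filter only through groups where it was high, and its calls are not independent of the filter. At L1C 1 of the 8 endoderm genes was higher and 2 were lower. Lamb1 was the higher one (0.55 ± 0.12, adjusted p = 0.00207), a call lost without stage weights and with L1C fitted alone, and Dab2, an endocytic adaptor, the lower one with the largest difference (-0.59 ± 0.08, adjusted p = 8.95e-06). Trps1, a GATA-type repressor, had differences of -0.79 ± 0.24 in FGO, -0.87 ± 0.21 in MII and -0.93 ± 0.24 in L1C (adjusted p = 0.0289, 0.00603 and 0.00984). All 3 calls of Trps1 were lost when the stage was fitted alone. With single libraries left out the FGO difference ranged from -1.15 to -0.43, and its call was lost without control replicate 1, knockout replicate 2 or knockout replicate 3. The MII call was lost without control replicate 1 (-0.62), and the L1C call without either control or knockout replicate 2 (-0.93, -0.93 and -0.73).

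At embryonic day 6.5 most trophoblast genes were higher in EXE and most endoderm genes higher in VE. All 7 tested trophoblast genes were higher in EXE than in EPI (median 4.09, all genes -0.03) and 5 of 7 were higher than in VE (median 1.71, all genes 0.16). Wnt7b, a signalling ligand of the chorion, measured 79.7 FPKM in the EXE control, 81.8 and 47.7 FPKM in the knockouts and at most 0.147 FPKM elsewhere, and Hand1, a giant cell factor, 44.8, 55.4 and 71.4 FPKM and at most 0.273 FPKM elsewhere. Of 14 endoderm genes 13 were higher in VE than in EPI (median 4.06, all genes -0.20), with Apoa1 at 10.71 ± 0.20 and Apoa4 at 8.996 ± 0.24, both lipid carriers. The 1 exception was Fgfr2, a growth factor receptor, which was higher in EXE than in VE (3.37 ± 0.34, adjusted p = 8.90e-05). Of 3 tested hematopoietic genes 2 were lower than in EPI both in EXE (median -1.65) and in VE (median -1.31), and none was higher. The GATA-type list gave 1 higher and 1 lower of 8 in EXE against EPI. Over all tested genes, in either direction, 38.4% were called for VE against EPI, 19.6% for EXE against EPI and 22.6% for EXE against VE.

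**Figure D4:**
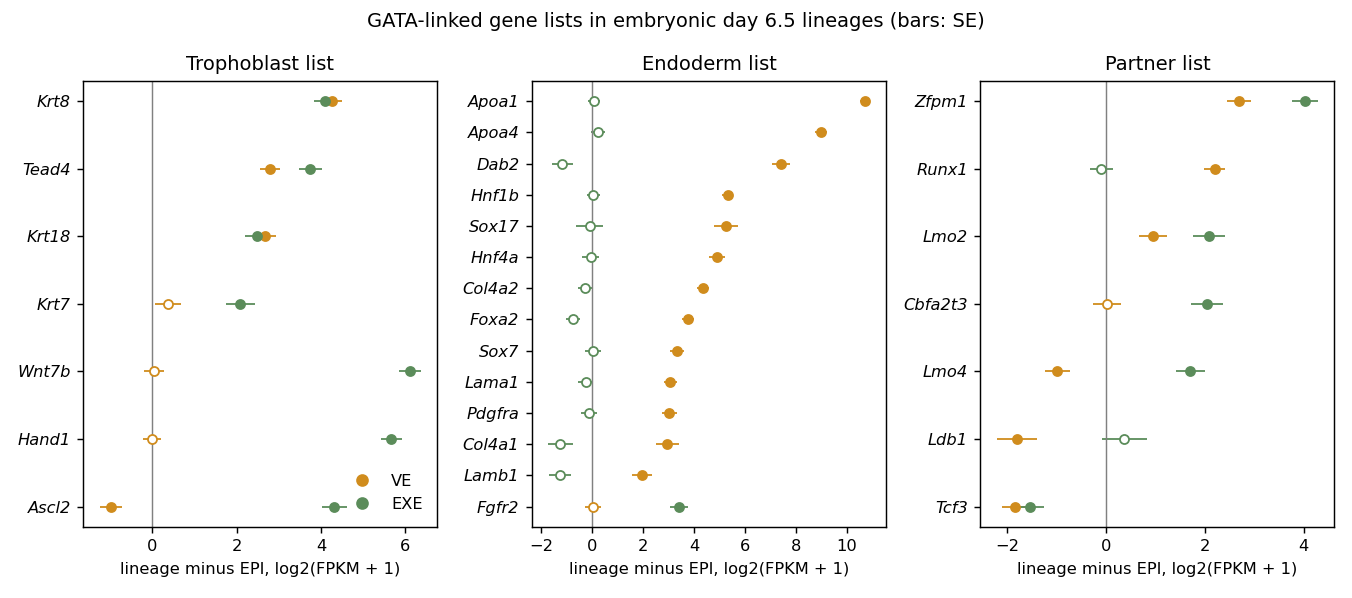
Difference from EPI in log2(FPKM + 1) (x axis) of tested genes (y axis) from the trophoblast, endoderm and partner lists, for VE in orange and EXE in green, with bars of 1 SE; filled points are called. All 7 trophoblast genes are filled and to the right in EXE, 13 of 14 endoderm genes in VE, and Zfpm1 is to the right in both.

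Of the GATA partners, Zfpm1 was higher than in EPI in both extraembryonic lineages. Zfpm1, the cofactor FOG1 that binds GATA1 and GATA4, was 4.03 ± 0.26 higher in EXE than in EPI (adjusted p = 1.41e-05) and 2.69 ± 0.24 higher in VE than in EPI (adjusted p = 2.41e-05). Its levels were 0.0931 to 0.470 FPKM in EPI, 6.37 to 9.23 FPKM in VE and 16.0 to 22.3 FPKM in EXE. Runx1, a blood factor, was higher in VE than in EPI (2.20 ± 0.21, adjusted p = 3.81e-05), and Lmo2, a bridging protein of GATA complexes, in EXE (2.08 ± 0.32, adjusted p = 0.00142). Tcf3, an E protein, was lower than in EPI in both (-1.85 ± 0.25 in VE and -1.55 ± 0.28 in EXE). In all, 4 of 7 partners were higher and 1 lower in EXE than in EPI, and 3 were higher and 3 lower in VE. EXE exceeded VE for 5 of 7 partners and lay below it for 1 (median 1.34, all genes 0.16). Beside these counts stand 19.6% of all tested genes called for EXE against EPI, 38.4% for VE against EPI and 22.6% for EXE against VE. Lmo4 and Ldb1, of the LIM-only and LIM-binding bridging proteins, were 2.69 ± 0.29 and 2.18 ± 0.45 higher in EXE than in VE (adjusted p = 0.000117 and 0.00693), and Runx1 was lower (-2.30 ± 0.23, adjusted p = 8.90e-05). No gene of any list was called for the maternal genotype in EPI or VE (limma), and 4 and 2 of the 39 tested had an unadjusted p under 0.05.

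Genes with the most similar profile were searched among those at 5 FPKM or more in at least 2 libraries, for members at that level, as a description over libraries that share stages. Over 26 total RNA libraries Gata1 was most like Flvcr2 (Pearson r = 0.993), Kcnk6 and Tmem150c (both 0.992), which were likewise near 0 until E2C. Tmem150c, for example, averaged 14.2 FPKM in control and 2.43 FPKM in knockout L2C embryos. Gata4 was most like Ugcg (0.966), Dcun1d3 (0.964) and Tmem79 (0.963), and Gata2 like Atad2b (0.969), Usp17lb (0.968) and Kdm7a (0.960). Over 11 poly(A) libraries Gata3 was most like AU021092 (0.999), Wnt7b (0.998) and Wnt6 (0.997), Gata1 like Anxa2, Arhgef39 and Grhl3 (0.969 to 0.972), Gata4 like Lhx1os, Eps8l3 and Nostrin (each 0.998) and Gata6 like Muc13, Prap1 and Cubn (each 0.995).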

How the data were processed

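The authors deposited gene-level FPKM in 2 tables, 26 total RNA and 11 poly(A) libraries (per the labels' protocols, a stranded total RNA kit and a poly(A) kit). The submitters' processing notes name Trim Galore 0.6.6, STAR 2.7.9, StringTie 2.1.7 and mm10. The gene annotation and strand setting are not given in the sources used here. Tables were normalized separately and never compared. In the deposited poly(A) column of control EPI replicate 1 (FPKM) 1 value below 0 was set to 0.

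Members and lists were chosen with earlier results of these data known. limma 3.58.1 (R 4.3.3) was fitted to log2(FPKM + 1) of genes at 1 FPKM or more in at least 2 libraries (15184 and 13914 genes), with 1 precision weight per stage in total RNA, Benjamini-Hochberg adjustment within each comparison and a threshold of 0.05. On simulated data this weighted fit made 61 false calls of 260 in FGO, 66 of 265 in MII and 35 of 234 in L1C. It made 27 of 205 in E2C and 46 of 231 in L2C. Fitted alone, these stages gave 7 of 191, 10 of 199, 6 of 198, 2 of 160 and 6 of 166 in this order. Tables and figures used Python 3.11.15, pandas 2.3.3 and matplotlib 3.10.9. Gene positions come from a GENCODE annotation, in which all 6 identifiers matched. Up to 2.22% of the exonic 50-base words of Gata3, 5.05% of Gata5 and 0.682% of Gata6 occur in other genes, and these 3 genes overlap antisense or neighbouring transcripts. Named genes are all 6 members, the 3 genes most like each member, and per list and comparison the called gene with the largest rise and fall. Alternatives changed the pseudocount, filter, scaling, weights, libraries and replicate block.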

Additional observations from a re-analysis of the deposited data

Results flagged for a closer look

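The knockout difference of Gata1 differed between E2C and L2C embryos by -2.3249 on the log2 scale (SE 0.23, limma adjusted p = 1.13e-06). It was -0.12 at E2C and -2.44 at L2C, where all 3 knockout libraries lay below both controls. At E2C no library held more than 0.229 FPKM of Gata1.

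The knockout difference of Gata4 differed between the same stages by -1.5521 (SE 0.26, adjusted p = 0.000264). It was 0.53 at E2C, where all 3 knockout libraries lay above all 3 controls, and -1.03 at L2C, where all 3 lay below both controls. These were 2 of 16 such tests over 4 genes and 4 pairs of consecutive stages, and the other 14 were not called.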

How the results depend on the processing

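Of 24 called member differences, without the Gata3 differences in FGO and MII, 17 were called under every alternative run and none turned its direction. Leaving out the only EXE control gave no estimate for the EXE lineage differences. Depth is not known from FPKM.

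For Gata4 in FGO the difference lost its call without the filter or weights or with FGO alone (0.37 each) and with a replicate block (0.27), with leave-one-out values from 0.27 to 0.47. Gata3 lost its call with E2C alone (-1.14). In control steps, Gata2 lost its call from MII to L1C with a replicate block (0.58) or without weights (0.57; leave-one-out 0.54 to 0.60), and from L1C to E2C with a replicate block (0.65). Gata3 lost it from L1C to E2C with a pseudocount of 0.1 (-0.78), no filter (-0.54) and centring (-0.39; leave-one-out -0.75 to -0.36), and from E2C to L2C with a pseudocount of 0.1 (-1.30), no filter or these stages alone (-0.64 each) and a replicate block (-0.70; leave-one-out -1.07 to -0.22). The Gata1 interaction lost it with a pseudocount of 0.1 (-2.10).

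Differences that were not called and turned were small. Centring gave 0.018 for Gata1 in FGO, 0.10 for Gata4 from L1C to E2C, and -0.039, -0.0525 and -0.0599 for Gata2, Gata3 and Gata4 in EPI, and a replicate block gave -0.0666 for Gata2 at L2C. Leave-one-out ranges were -0.19 to 0.0516 for Gata1 in FGO, -0.0666 to 0.26 for Gata2 at L2C, -0.12 to 0.0108 for Gata4 from L1C to E2C, -0.0007 to 0.63, -0.0257 to 0.17 and -0.12 to 0.10 for Gata1, Gata4 and Gata6 in EPI, -0.0697 to 0.34 for Gata3 in VE, and -0.24 to 0.54 and -0.0448 to 0.16 for Gata1 and Gata3 in VE against EPI.

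Counts of called genes fell without weights or with the stage alone to 903 and 859 in FGO (main 2107), 895 and 974 in MII (2545), and 1176 and 1042 in L1C (2675). At E2C (2046) they were 4407 and 744. With single libraries left out they were 1174 to 2139, 1544 to 2670, 1424 to 2610 and 1268 to 1807 in these 4 stages. The step from FGO to MII (819) gave 534 with a replicate block, 210 without weights, 480 alone and 364 to 563 with libraries left out. The step from MII to L1C (3862) gave 2555, 1658 and, with libraries left out, 2433 to 3034, and the E2C to L2C interaction (2872) gave 4622 without weights. In EPI (0) the count was 2 with a pseudocount of 0.1, 35 without the filter, 1 under TPM scaling, 1 with a replicate block and 0 to 2 with libraries left out. In VE (1) it was 2, 2 under TPM scaling, 0 alone and 1 to 2 with libraries left out.

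The replicate numbers were not shown to pair the libraries: deviations of libraries with the same number correlated between -0.08 and 0.14 in the early stages, and at 0.59 in EPI and 0.42 in VE, where 2 numbers per lineage give 1 independent value. The replicate block changed no member's call in EPI or VE. Of 80 results on list genes, 118 of 978 alternative values lost their call and none turned.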

Other observations

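Of 8 tested GATA-type zinc finger proteins outside the family, 3 were lower in VE than in EPI. For EXE against EPI 1 was higher and 1 lower, and for EXE against VE 1 was higher. Over all tested genes 38.4%, 19.6% and 22.6% were called in these comparisons. Mta3, a NuRD subunit, was higher in EXE than in EPI (1.20 ± 0.24, adjusted p = 0.00681) and than in VE (1.05 ± 0.24, adjusted p = 0.0114), at 72.7 to 104 FPKM against 31.3 to 48.5 FPKM. Mta1, its paralogue, was lower in EXE than in EPI (-1.71 ± 0.32, adjusted p = 0.00456), at 3.66 to 8.64 FPKM against 13.5 to 30.3 FPKM. Epor, the erythropoietin receptor gene, was lower than in EPI in both VE (-2.68 ± 0.25, adjusted p = 3.38e-05) and EXE (-2.35 ± 0.28, adjusted p = 0.000332). It measured 3.87 to 8.76 FPKM in EPI and 0.547 FPKM at most elsewhere.

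In the early stages, Lamb1 fell by 1.595 ± 0.12 on the log2 scale in controls from MII to L1C and by 2.07 ± 0.17 from L1C to E2C (adjusted p = 6.13e-09 and 2.89e-09). It was higher in knockouts at E2C, by 0.97 ± 0.20 (adjusted p = 0.00253). Kit fell by 0.76 ± 0.10 from L1C to E2C (adjusted p = 2.17e-06) and was likewise higher in knockouts at E2C, by 0.47 ± 0.12 (adjusted p = 0.0105), a call lost without control or knockout replicate 2.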
